A study of Rattus norvegicus with 30 samples.

Results

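The 37 genes considered here are those of the cellular response to low oxygen and of glycolysis: the subunits of the hypoxia-inducible factors (HIF), the enzymes that sense oxygen, target genes of HIF, and the enzymes that turn glucose into lactate. They were taken as the rows of the deposited table with 1 of these gene symbols. The rule uses no measured value, but the list was drawn up with earlier results of these data known. Of the 37, 36 were found among the 17134 genes of the table, and Pgk1 (phosphoglycerate kinase) was not matched by symbol and is not analysed here. Brain RNA was sequenced from 30 male Sprague Dawley rats on a normal diet, 10 per group. WT rats carry the rat amylin gene alone. HIP rats carry it too and in addition express human amylin, which forms amyloid, in the pancreatic β-cells, and the transgene is thus not driven in the brain. AKO rats are amylin knockouts. The age was 15 to 16 months for WT and HIP rats, and the age of the 10 sequenced AKO rats is not given in the sources used here. The tissue is called frontal cortex in the sample annotation, cerebral cortex in the methods and hippocampus in the results of the study.

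In cells with enough oxygen, prolyl hydroxylases (Egln genes) mark the HIF α subunits, the Vhl protein binds the marked subunits, and they are degraded. When oxygen is short, the α subunits persist, pair with Arnt, bind DNA and raise the transcription of genes for blood vessel growth, glucose uptake, glycolysis and mitochondrial turnover. Because HIF α is controlled mainly at the protein level, the RNA of its targets is the usual readout of this pathway. In the brain, neurons take up glucose by GLUT3 (Slc2a3), and lactate moves between glia and neurons.

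The values are normalized read counts, on which a gene was compared between rats but not with other genes, because no gene length was applied. Estimated reads on genes were 12.9 to 21.1 M in WT, 13.7 to 16.6 M in HIP and 12.9 to 23.6 M in AKO rats. The 5 neocortex markers used here (Slc17a7, Cux2, Rorb, Fezf2 and Tbr1) were detected in each rat but WT rat 10RT43, where Fezf2 was at 0. Their sum was 12838 in that rat, against 23514 to 46745 for the remaining 29. The cerebellar granule cell gene Gabra6 was 17979 in WT rat 10RT43 and 1564 in HIP rat 12RT23, the pineal gene Tph1 was 19081 in HIP rat 10RT46, and both genes were at most 16.5 in the other 27 rats. Counts of called members and many of the fold changes are therefore given with and without these 3 libraries. The plot of log2 fold changes shows the value without them for each member. In the text, other fold changes and most ranges are over all rats of a group. Some of these ranges end at a value from these 3 libraries. The other 27 also differed in markers of other regions and were kept. Summed olfactory bulb markers ran from 115 (HIP rat 10RT48) to 9697 (WT rat 10RT51). Summed striatum markers reached 9217 (WT rat 10RT55), and summed choroid plexus markers were 3822 in AKO rat 7AKO19. The part of these regions in the results was not tested. The knocked-out gene Iapp was not matched by symbol, so the AKO label was not checked on it. All WT rats have 10RT numbers, HIP rats have 10RT or 12RT numbers and AKO rats have KAH or AKO numbers. Genotype and rat series thus cannot be told apart in the comparisons with AKO rats. WT and HIP rats share the 10RT numbers, and 12RT23 is the only HIP rat outside them. In bulk tissue, fewer cells of a type and less RNA per cell cannot be told apart either.

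Promoter sequence is shown for 5 genes on which the results below turn, because HIF binds the cores ACGTG and GCGTG. Each stretch is the 250 bases before the start site in RefSeq (GRCr8), 5′ to 3′ on the strand of the gene, with every core on either strand in capitals (CACGT and CACGC are the reverse strand). An E-box CACGTG holds a core on both strands and counts as 2 cores. RefSeq lists 3 starts for Aldoa and 2 for Eno1, of which 1 is shown. Gapdh, Aldoa and Eno1 are glycolytic enzymes, of which Gapdh varied with Aldoa and less closely with Eno1 across rats. Pdk1 and Ddit4 differed in opposite directions between HIP and AKO rats.
Gapdh, chr4:159652468-159652717, minus strand: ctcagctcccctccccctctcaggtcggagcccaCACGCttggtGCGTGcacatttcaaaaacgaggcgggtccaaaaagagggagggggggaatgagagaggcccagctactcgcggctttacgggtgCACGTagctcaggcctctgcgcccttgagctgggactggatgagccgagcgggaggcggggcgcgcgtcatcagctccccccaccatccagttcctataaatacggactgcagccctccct
Aldoa, chr1:190838022-190838271, minus strand: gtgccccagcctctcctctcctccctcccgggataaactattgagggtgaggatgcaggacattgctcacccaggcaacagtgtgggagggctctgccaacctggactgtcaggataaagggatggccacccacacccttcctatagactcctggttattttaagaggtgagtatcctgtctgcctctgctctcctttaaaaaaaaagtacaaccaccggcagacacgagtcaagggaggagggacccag
Eno1, chr5:166002617-166002866, plus strand: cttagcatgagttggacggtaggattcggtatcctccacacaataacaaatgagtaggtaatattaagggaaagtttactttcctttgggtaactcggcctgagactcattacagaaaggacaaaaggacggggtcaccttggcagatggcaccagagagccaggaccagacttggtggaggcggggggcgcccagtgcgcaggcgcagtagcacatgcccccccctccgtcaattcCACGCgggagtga
Pdk1, chr3:77113264-77113513, plus strand: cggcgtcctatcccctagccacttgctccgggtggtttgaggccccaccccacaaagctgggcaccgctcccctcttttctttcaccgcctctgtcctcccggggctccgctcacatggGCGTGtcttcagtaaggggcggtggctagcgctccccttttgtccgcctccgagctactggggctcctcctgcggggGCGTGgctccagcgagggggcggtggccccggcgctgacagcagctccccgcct
Ddit4, chr20:28437038-28437287, minus strand: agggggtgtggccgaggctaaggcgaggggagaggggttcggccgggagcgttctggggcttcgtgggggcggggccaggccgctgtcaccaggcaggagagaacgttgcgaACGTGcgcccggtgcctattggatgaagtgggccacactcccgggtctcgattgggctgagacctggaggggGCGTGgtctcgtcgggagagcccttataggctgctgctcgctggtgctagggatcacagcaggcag
These windows hold 3 cores in Gapdh, 0 in Aldoa, 1 in Eno1, 2 in Pdk1 and 2 in Ddit4. Of the 37 genes, 31 had a promoter in this table. Bnip3l, Pgk1, Ndrg1, Slc2a3, Stc1 and Hmox1 had none. At least 1 core was found in 19 of the 31 (61.3%) and in 37.9% of all 27457 promoters of that length, and at least 3 cores in 25.8% and 6.57%. Bnip3 and Ldha hold 4 cores each, Hif1a 3 and P4ha2 5. Of the other members called below, Hif3a holds 2 and Egln3, Vhl and Stc2 hold 0. Vegfa, a HIF target, also holds 0 in this window. The GC content of these windows was also higher, with a median of 63.6% in the 31 promoters and 52% in all, and GC-rich sequence holds these letters more often. A match is a description of the letters and not of binding.

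Few of these genes passed the test in any comparison. By limma (two-sided, unadjusted p under 0.05, the threshold of the study), 1 of 36 members was called in HIP vs. WT, Stc2, which was higher, where 2.57% of all 17085 tested genes were called (1.11% higher and 1.46% lower). In AKO vs. WT 1 of 36 was called, Egln3, which was higher, against 9.34% of 17058 genes (5.23% higher and 4.12% lower). In HIP vs. AKO 7 of 36 (19.4%) were called, against 12.7% of 17092 genes (5.85% higher and 6.9% lower). Of these, Pdk1 and Bnip3l were higher in HIP rats, and Ddit4, Hmox1, Vhl, Hif3a and Gapdh were lower. After Benjamini-Hochberg adjustment over every tested gene, 0 members had a limma p under 0.05. The smallest adjusted p was 0.999 in HIP vs. WT, 0.532 in AKO vs. WT and 0.249 (Pdk1) in HIP vs. AKO, and the share of all genes with an adjusted p under 0.05 was 0%, 0.0997% and 0.17%. The comparisons share animals, since each group of 10 rats enters 2 of them. Differences of the members were small. The median absolute log2 fold change was 0.07 in HIP vs. WT, 0.12 in AKO vs. WT and 0.08 in HIP vs. AKO, and 0.09, 0.13 and 0.13 over all tested genes. A difference under 1.5-fold was found for 36, 35 and 34 of the 36 members. Without the 3 libraries 1, 2 and 5 members were called, where 3.78%, 10.3% and 15.1% of all genes were. The member then called in HIP vs. WT was Hmox1, lower in HIP rats, in place of Stc2. Leaving out AKO rats 4KAH27 and 6KAH98 as well, which stood apart in many members, 1, 3 and 5 were called against 3.78%, 12.3% and 17.5%. Missing the threshold does not show that the groups had equal levels.

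**Figure D1:**
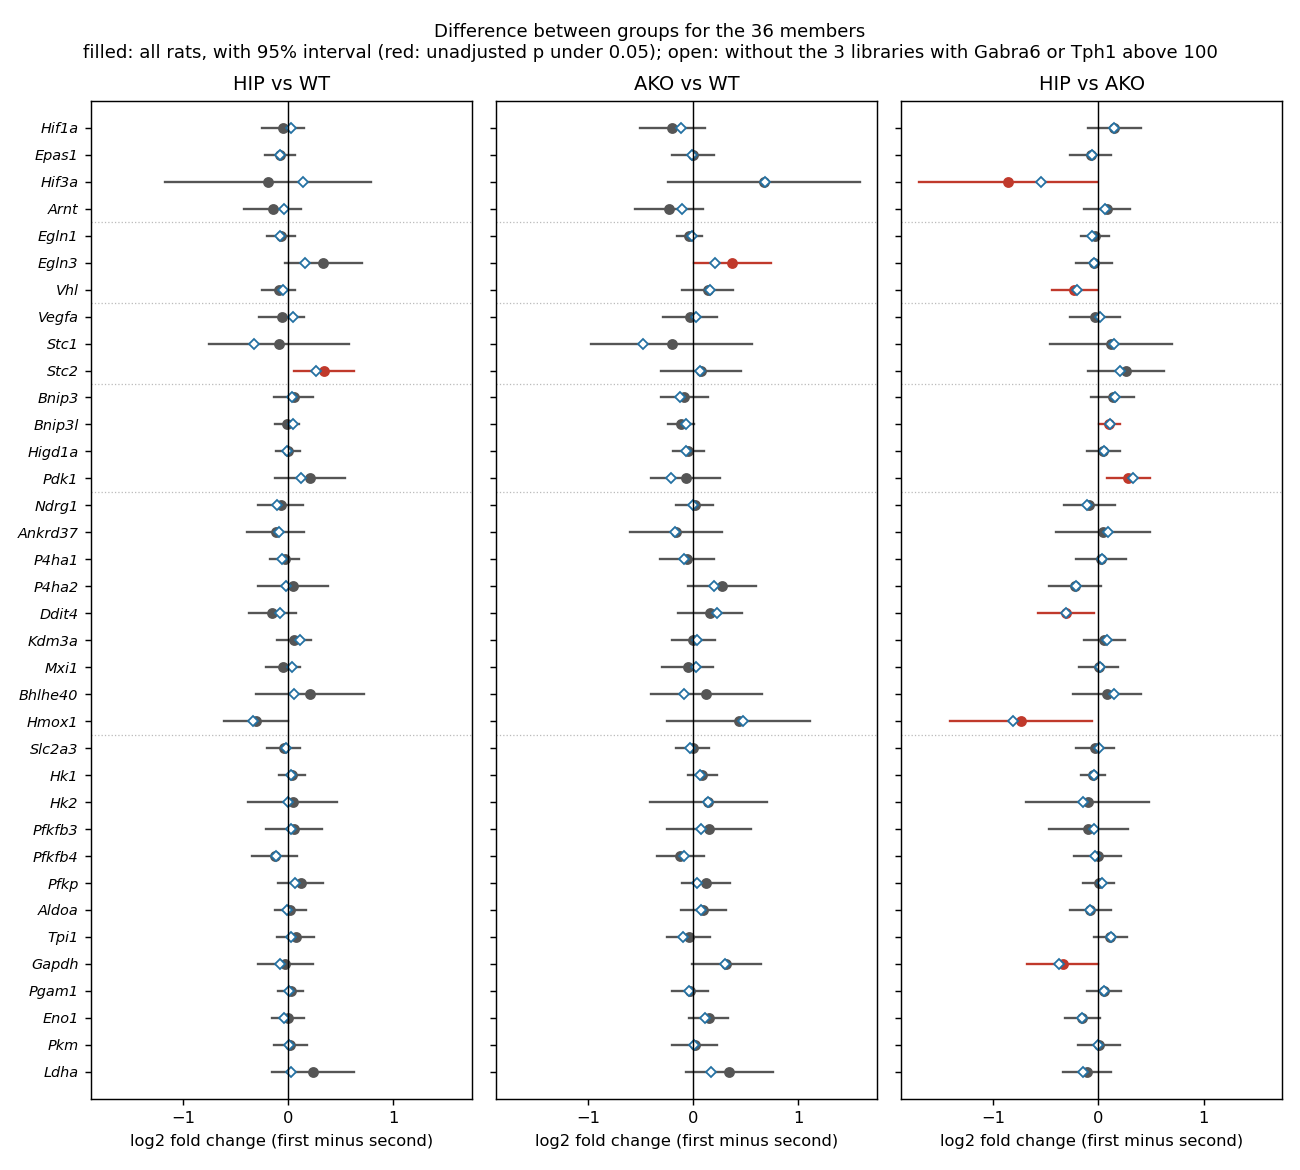
Log2 fold changes (x axis) of the 36 members (y axis, by role) in the 3 comparisons, on log2(normalized count + 1), with 95% intervals and the value without the 3 libraries (open diamonds). Most intervals include 0, and the widest are those of Hif3a, Stc1, Hk2 and Hmox1.

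Of the 4 HIF subunits, Hif3a alone passed the test, in HIP vs. AKO. Hif1a, the oxygen-labile α subunit of HIF-1, had a lowest, median and highest normalized count of 1022, 1234 and 2136 in WT, 1082, 1257 and 1382 in HIP, and 536, 1163 and 1431 in AKO rats. The medians lie close together, and 1 rat sets the end of each wide range, 10RT43 in WT and 6KAH98 in AKO rats. The log2 fold change of HIP vs. WT was -0.05 (95% interval -0.25 to 0.15). Epas1, the α subunit of HIF-2, which is known from endothelium and astrocytes, spanned 3003 to 4119 in WT, 2978 to 4025 in HIP and 2444 to 4735 in AKO rats. Arnt, the stable β partner of both, was 285 to 393 in 9 WT rats and 776 in 10RT43, 287 to 380 in HIP and 204 to 482 in AKO rats.

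Hif3a (ENSRNOG00000017198), the remaining α subunit, with isoforms that restrain the others, was the member that varied most between rats. It was 0.9, 9.5 and 32.6 (lowest, median, highest) in WT, 0.97, 11.2 and 21.3 in HIP, and 3.64, 17.4 and 38.7 in AKO rats. The groups overlapped, and 1 of 10 HIP rats was above the AKO median. HIP vs. AKO gave a log2 fold change of -0.86 (standard error 0.41, limma, p = 0.0458, adjusted p = 0.383 after Benjamini-Hochberg). Without the 3 libraries, among them HIP rat 10RT46 at 0.97, it was -0.54 (p = 0.155). The call was also lost without any 1 of HIP rats 10RT37, 10RT46, 10RT54 and 12RT23 or AKO rats 4KAH35, 6AKO35, 6AKO52, 6KAH99, 7AKO19, 7AKO28, 7AKO30 and 7AKO42 (p = 0.0522 to 0.0989). Without AKO rat 6KAH98 the value was -1.08 (p = 0.00943). The log2 ratio of Hif1a to Epas1, which does not depend on library scaling, was -1.50 ± 0.15 in HIP and -1.72 ± 0.25 in AKO rats (SD, n = 10 per group, permutation test, p = 0.0250, adjusted p = 0.250 over 30 ratio tests). The difference of 0.23 became 0.21 (permutation test, p = 0.0582) without the 3 libraries and 0.17 (p = 0.0806) without 4KAH27 and 6KAH98 as well, so that the call was lost.

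Among the oxygen sensors, Egln3 alone was called in AKO vs. WT, and Vhl in HIP vs. AKO. Egln3 (ENSRNOG00000005053), the prolyl hydroxylase PHD3 and itself a HIF target, was 139.9, 430 and 633 in WT, 423, 505 and 587 in HIP, and 405, 526 and 643 in AKO rats. WT rat 10RT43 lay far below all others, the other 9 WT rats spanned 388 to 633, and the groups overlapped. AKO vs. WT gave a log2 fold change of 0.37 (standard error 0.18, limma, p = 0.0485, Benjamini-Hochberg adjusted p = 0.532), with 9 of 10 AKO rats above the WT median, and 0.21 (p = 0.0390) without 10RT43, the one of the 3 libraries in this comparison. HIP vs. WT gave 0.33 (standard error 0.18, p = 0.0716), 0.16 (p = 0.102) without the 3 libraries and 0.17 (p = 0.0683) without 10RT43. The call in AKO vs. WT was lost without any 1 of WT rats 10RT38, 10RT39, 10RT44, 10RT45 and 10RT55 or AKO rats 4KAH27, 4KAH35, 6AKO52, 6KAH98, 6KAH99, 7AKO19, 7AKO28 and 7AKO42 (p = 0.0511 to 0.0816). In HIP vs. WT the unadjusted p of Egln3 passed 0.05 without WT rat 10RT57 (p = 0.0263).

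Vhl (ENSRNOG00000010258), the subunit of the ubiquitin ligase that binds hydroxylated HIF α, was 629, 711 and 787 in HIP and 658, 759 and 1445 in AKO rats. AKO rat 4KAH27 held the highest value, and the other 9 AKO rats reached 898. HIP vs. AKO gave a log2 fold change of -0.23 (standard error 0.10, limma, p = 0.0390, Benjamini-Hochberg adjusted p = 0.364), and -0.21 (p = 0.0830) without the 3 libraries. Without 4KAH27 it was -0.14 (p = 0.0510), and with sample-quality weights -0.11 (p = 0.149). The call was also lost without any 1 of 10RT37, 10RT41, 10RT54, 12RT23, 4KAH35, 6KAH99 and 7AKO30 (p up to 0.0653). Egln1 (PHD2), the main HIF hydroxylase of most cells, was among the steadiest members, with 497 to 651 in WT, 472 to 664 in HIP and 509 to 586 in AKO rats.

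Of the secreted targets, Stc2 was the one member called in HIP vs. WT. Stc2 (ENSRNOG00000020729), a stanniocalcin glycoprotein, was 31.8, 48.9 and 65.5 in WT, 45.3, 61.4 and 83.4 in HIP, and 32.3, 48.7 and 89.4 in AKO rats. HIP rats lay at the upper end of the WT range and the groups overlapped, with 9 of 10 HIP rats above the WT median. The log2 fold change was 0.34 (standard error 0.14, limma, p = 0.0220, Benjamini-Hochberg adjusted p = 0.999). It was 0.27 (p = 0.0888) without the 3 libraries, of which HIP rat 10RT46 had the highest HIP value. Leaving out 1 rat at a time gave p = 0.0103 to 0.0475. WT rats had more estimated reads than HIP rats (medians of 19.1 and 15.6 M), and with estimated reads as a covariate the value was 0.29 (p = 0.132), or 0.09 (p = 0.709) without 10RT43 as well. Vegfa, the main growth factor of new vessels and a classic HIF target, was 909, 1224 and 1788 in WT, 967, 1143 and 1641 in HIP, and 796, 1193 and 1781 in AKO rats. Its HIP vs. WT log2 fold change was -0.06 (95% interval -0.28 to 0.15). Stc1, the other stanniocalcin, ranged from 7.18 to 91.8 in WT, 19.8 to 60.0 in HIP and 9.72 to 89.1 in AKO rats, and its p was 0.789 in HIP vs. WT, 0.584 in AKO vs. WT and 0.677 in HIP vs. AKO.

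**Figure D2:**
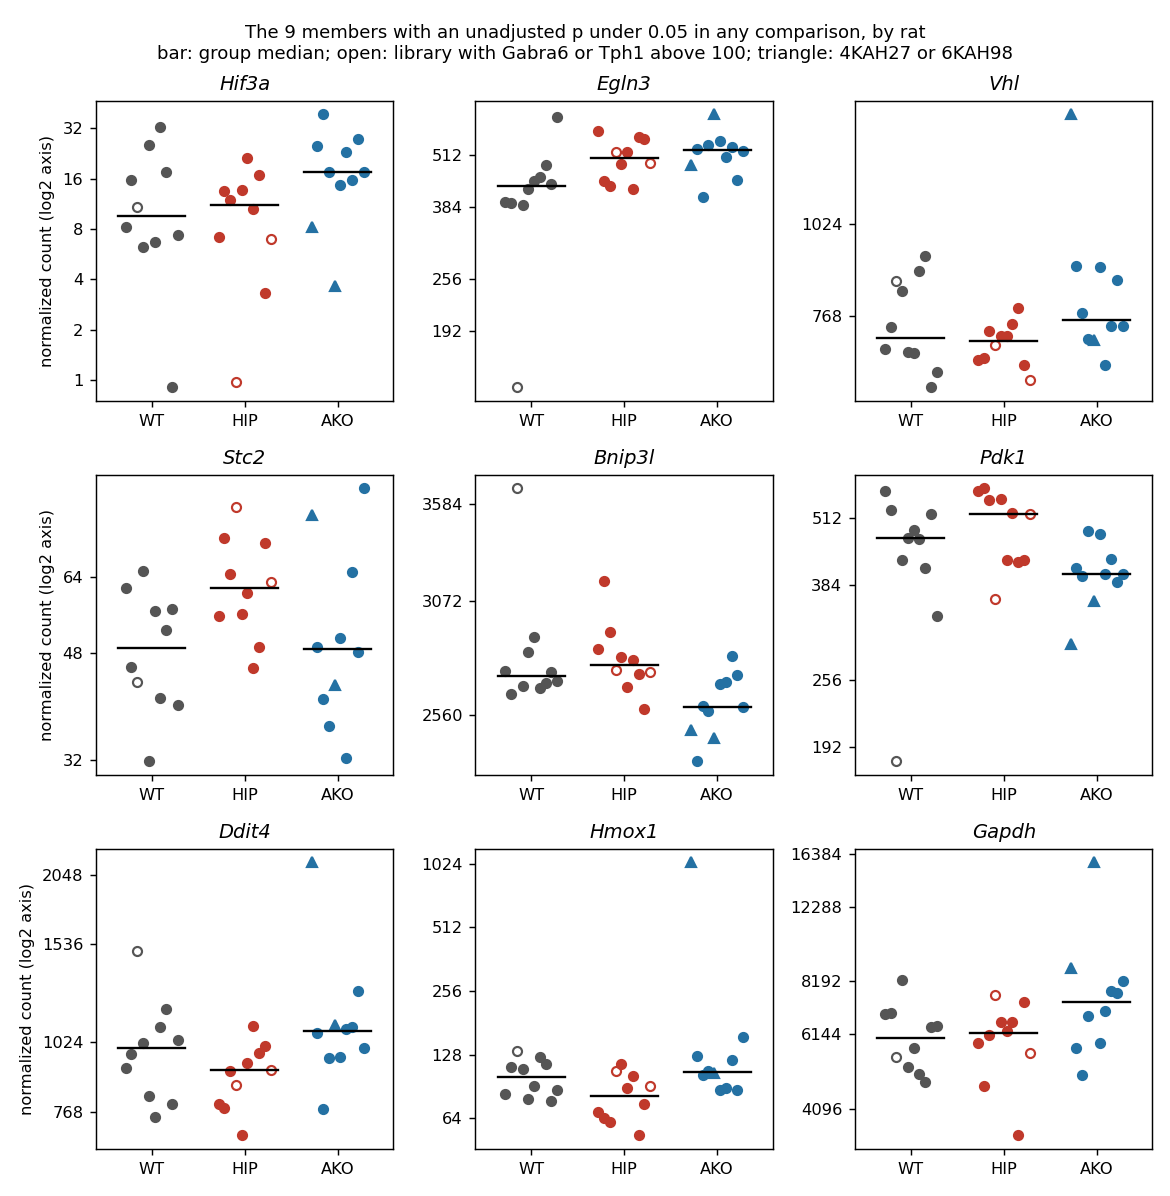
Normalized counts (y axis, log2 scale) of the 9 members with an unadjusted p under 0.05 in any comparison, by group (x axis), 1 point per rat, with a bar at the group median. The groups overlap in every panel, and single rats set the extremes: 4KAH27 for Hmox1 and Ddit4, 6KAH98 for Gapdh and 10RT43 for Egln3 and Pdk1.

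Of the 4 members that act on mitochondria, Pdk1 and Bnip3l were higher in HIP than in AKO rats, in a comparison that called 12.7% of all genes, and Bnip3 and Higd1a did not pass the test. Pdk1 (ENSRNOG00000001517) is the kinase that inhibits pyruvate dehydrogenase and so limits the oxidation of pyruvate in the mitochondrion. It was 362, 522 and 582 in HIP, 299, 403 and 485 in AKO, and 181, 470 and 574 in WT rats. Of the HIP rats, 9 of 10 were above the AKO median, and the groups overlapped. HIP vs. AKO gave a log2 fold change of 0.28 (standard error 0.10, limma, p = 0.00900, Benjamini-Hochberg adjusted p = 0.249), the smallest p of the members. The same comparison gave 0.33 (p = 0.00334) without the 3 libraries and 0.25 (p = 0.00767) without 4KAH27 and 6KAH98 as well. Leaving out 1 rat at a time gave p = 0.00175 to 0.0193, and with all 30 rats in 1 fit p was 0.0580. AKO vs. WT gave -0.07 (p = 0.653), and -0.21 (p = 0.0483) without WT rat 10RT43, which had the lowest value of all 30 rats.

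Bnip3l (ENSRNOG00000009820), the mitophagy receptor NIX, was the steadiest member, with a within-group SD of 0.10 on the log2 scale. It was 2584, 2774 and 3172 in HIP, 2379, 2596 and 2814 in AKO, and 2647, 2723 and 3673 in WT rats. The highest WT value was again that of 10RT43, and the other 9 WT rats reached 2900.2. Between HIP and AKO rats the log2 fold change was 0.11 (standard error 0.05, limma, p = 0.0392, Benjamini-Hochberg adjusted p = 0.365). The call was lost without any 1 of 10RT37, 10RT41, 10RT42, 10RT48, 10RT52, 4KAH27, 4KAH35, 6AKO52 and 7AKO42 (p = 0.0509 to 0.0833). AKO vs. WT gave -0.11 (standard error 0.06, p = 0.0669) and -0.07 (p = 0.127) without 10RT43. Bnip3, the related receptor, was 1722 to 2581 in WT, 1894 to 2779 in HIP and 1589 to 2757 in AKO rats. Higd1a, a respiratory chain protein, was 789 to 996 in WT, 769.6 to 1016 in HIP and 674 to 1053 in AKO rats.

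Of the 9 other targets, Ddit4 and Hmox1 were lower in HIP than in AKO rats. Ddit4 (ENSRNOG00000057078), which encodes the mTORC1 inhibitor REDD1, was 697, 912 and 1094 in HIP, 776, 1072 and 2156 in AKO, and 752, 999 and 1495 in WT rats. Only 1 of 10 HIP rats was above the AKO median. The log2 fold change of HIP vs. AKO was -0.31 (standard error 0.13, limma, p = 0.0239, Benjamini-Hochberg adjusted p = 0.323), and -0.31 (p = 0.0413) without the 3 libraries. AKO rat 4KAH27 stood apart at 2156, the other 9 AKO rats reached 1268, and without 4KAH27 the value was -0.20 (p = 0.0314). Without the 3 libraries, 4KAH27 and 6KAH98 it was -0.19 (p = 0.0699).

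Hmox1 (ENSRNOG00000014117), the heme oxygenase, is induced by heme and oxidative stress as well as by hypoxia. It was 53.3, 82.0 and 116 in HIP, 77.4, 99.9 and 132.7 in WT, and 86.7, 106 and 1040 in AKO rats, where 9 AKO rats spanned 86.7 to 154.8. HIP rats were at the lower end and the groups overlapped. For HIP vs. AKO the log2 fold change was -0.74 (standard error 0.33, limma, p = 0.0342, Benjamini-Hochberg adjusted p = 0.354), and -0.81 (p = 0.0347) without the 3 libraries. Without 4KAH27 the value was -0.41 (p = 0.0132). The call was lost without any 1 of HIP rats 10RT37, 10RT41, 10RT42 and 10RT53 (p = 0.0502 to 0.0596). HIP vs. WT gave -0.31 (standard error 0.15, p = 0.0502), and -0.34 (p = 0.0390) without the 3 libraries. In that comparison p also passed 0.05 without any 1 of 10RT38, 10RT45, 10RT55, 10RT57, 10RT46, 10RT48, 10RT49, 10RT52 and 12RT23 (p = 0.0200 to 0.0496).

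The other 7 members of this group had no call. The collagen prolyl hydroxylases P4ha1 and P4ha2 spanned 682 to 1054 and 181 to 480 in WT, 739.9 to 891 and 205 to 419 in HIP, and 410 to 931 and 285 to 464 in AKO rats. The transcriptional repressor Bhlhe40 (DEC1) was 1665 to 3987 in 9 WT rats and 621 in 10RT43, 1646 to 3964 in HIP and 1781 to 3918 in AKO rats. Mxi1, which antagonizes MYC, stayed within 1887 to 2094 in HIP rats, with 3262 in WT rat 10RT43 and 3167 in AKO rat 4KAH27. Kdm3a, a histone demethylase, spanned 529 to 792 in WT, 513 to 746 in HIP and 433 to 853 in AKO rats. Ndrg1, a gene of myelinating glia, reached its highest value, 3067, in HIP rat 10RT46, the rat with the highest summed oligodendrocyte markers (156326, 40293 to 123281 in the other HIP rats), and its lowest, 1400.4, in HIP rat 12RT23, the one with the lowest, and the part of these cells in the result was not tested. Ankrd37, an ankyrin repeat gene, was 28.2 to 100.1 over all rats.

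Glucose uptake and glycolysis showed 1 call among 13 members and 3 comparisons, Gapdh in HIP vs. AKO. Gapdh (ENSRNOG00000018630), which oxidizes glyceraldehyde 3-phosphate, was 3548, 6186 and 7620.2 in HIP, 4921, 7321 and 15653 in AKO, and 4732, 6034 and 8272 in WT rats. AKO rat 6KAH98 was far above all others, the other 9 AKO rats reached 8808, and the groups overlapped. HIP vs. AKO gave a log2 fold change of -0.34 (standard error 0.16, limma, p = 0.0490, Benjamini-Hochberg adjusted p = 0.389), -0.38 (p = 0.0448) without the 3 libraries, and -0.22 (p = 0.1003) without 6KAH98. The call was also lost without any 1 of 10RT37, 10RT41, 10RT42, 10RT49, 10RT53, 12RT23, 4KAH27, 6AKO52, 7AKO19, 7AKO28, 7AKO30 and 7AKO42 (p up to 0.107). AKO vs. WT gave 0.31 (standard error 0.16, p = 0.0588) and 0.19 (p = 0.113) without 6KAH98, and p passed 0.05 without any 1 of 10RT44, 4KAH35, 6AKO35 and 6KAH99 (p = 0.0213 to 0.0406). Reads of Gapdh and of other glycolytic enzymes may also match processed pseudogenes, and how such reads were counted is not given in the sources used here.

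The first steps of the pathway showed no call. Slc2a3 (GLUT3), the neuronal glucose transporter, was 2473 to 3243 in WT, 1948 to 3093 in HIP and 2199 to 3469 in AKO rats. Its HIP vs. WT log2 fold change was -0.04 (95% interval -0.20 to 0.11). Hexokinase Hk1, the main form of the brain, was 7514 to 10230.2 in WT, 7830 to 9747 in HIP and 8212 to 10569.7 in AKO rats, and Hk2, the inducible form, was 18.2 to 176 over all rats. Pfkfb3, which makes the activator of phosphofructokinase, was 350.4 to 750 in WT, 373 to 707 in HIP and 300.1 to 1347 in AKO rats, with the highest value in 4KAH27 and the lowest in 6KAH98. Pfkfb4, its paralog, was 59.0 to 104 over all rats, and Pfkp, a phosphofructokinase, was 5772 to 7929 in 9 WT rats and 3859 in 10RT43, 5935 to 8081 in HIP and 5928 to 8146 in AKO rats.

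The lower steps varied most in 6KAH98. Aldoa (aldolase) was 39491 there and 20500 to 27149 in the other AKO rats, Tpi1 (triosephosphate isomerase) was 12903 and 8220 to 10444, and Eno1 (enolase) was 9004 and 5340 to 6220. These 3 genes and Gapdh had their highest AKO value in this rat, while Hif1a, Epas1, Arnt, Vegfa and Hk2 had their lowest AKO value in it. Pgam1 (phosphoglycerate mutase) spanned 10448 to 13509 in WT, 10983 to 13881 in HIP and 9234 to 14226 in AKO rats. Pkm (pyruvate kinase) spanned 10224 to 14484, 11229 to 15146 and 9430 to 17994. Ldha, the lactate dehydrogenase subunit that favours lactate and a HIF target, was 3921 to 6732 in 9 WT rats and 1455 in 10RT43, 4251 to 6223 in HIP and 4030 to 7957 in AKO rats. Its HIP vs. WT log2 fold change was 0.24 (95% interval -0.15 to 0.63) and 0.02 without the 3 libraries.

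Gapdh and Aldoa varied together across rats within each group. Over the 30 rats Pearson's r of their log2 values was 0.86 and Spearman's rho 0.85 (permutation test, p = 1e-05 for each, the smallest that 100000 resamples can give, adjusted p = 0.000130 over 13 pairs). The r was 0.72 in WT, 0.74 in HIP and 0.99 in AKO rats, 0.80 without the 2 rats farthest in Gapdh (6KAH98 and 10RT53), and 0.72 in the 25 rats without the 3 libraries, 4KAH27 and 6KAH98. Gapdh and Eno1 had an r of 0.72 and a rho of 0.59 (permutation test, p = 0.000110 and 0.000780), and an r of 0.45 without the same 2 rats. The r of this pair was 0.53 in WT, 0.40 in HIP and 0.87 in AKO rats. Gapdh and Tpi1 had an r of 0.31 and a rho of 0.21 (permutation test, p = 0.1003 and 0.260), and an r of 0.23 without 6KAH98 and 10RT53. Here r was 0.40 in WT, -0.22 in HIP and 0.85 in AKO rats. These 3 pairs with Gapdh were chosen after the values were seen, and adjustment over 13 pairs does not cover that choice. The other 10 pairs were related genes (paralogs), such as Hif1a with Epas1 and Bnip3 with Bnip3l. For those pairs no r passed adjustment over the 13 pairs, and the smallest adjusted p was 0.102 (permutation test), for Hif1a with Epas1.

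The balance of the enolase isoforms differed in AKO rats at the unadjusted threshold. The log2 ratio of Eno1, the form of most cells, to Eno2, the neuronal form, was -1.66 ± 0.20 in AKO, -1.98 ± 0.25 in WT and -1.89 ± 0.16 in HIP rats (SD, n = 10 per group). The difference of AKO vs. WT was 0.32 (permutation test, p = 0.00316, adjusted p = 0.0948 over 30 ratio tests) and that of HIP vs. AKO was -0.23 (permutation test, p = 0.0107, adjusted p = 0.160). Without the 3 libraries they were 0.26 (p = 0.00590, permutation test) and -0.24 (p = 0.01665), and leaving out 1 rat at a time gave p up to 0.00611 and 0.0225. Eno2 itself was 18990 to 26059 in WT and 15490.4 to 22994 in AKO rats (log2 fold change -0.17, limma, p = 0.0349, Benjamini-Hochberg adjusted p = 0.492). The summed levels of the 5 astrocyte markers had a median of 31270.2 in WT (27085 to 50304), 35115 in HIP (28256 to 38895) and 40104 in AKO rats (25958 to 47498), and those of the 5 microglia markers 3112, 2968 and 3800.3. Their part in the ratio was not tested. The log2 ratio of Ldha to Ldhb, the subunit that favours pyruvate, was -0.68 ± 0.35 in AKO and -1.14 ± 0.61 in WT rats (permutation test, p = 0.0368, adjusted p = 0.276). It rested partly on WT rat 10RT43, without which the difference was 0.29 in place of 0.46 (permutation test, p = 0.0738). The call was also lost without any 1 of 10RT38, 10RT44, 4KAH35, 6AKO52, 6KAH98, 6KAH99, 7AKO19, 7AKO28 and 7AKO42 (permutation test, p = 0.0503 to 0.0751). Of 30 ratio tests, 4 had an unadjusted p under 0.05 and 0 an adjusted one. In HIP vs. WT the ratio of Stc1 to Stc2 also passed the unadjusted threshold without the 3 libraries (difference -0.59, permutation test, p = 0.0370, adjusted p = 0.370), where all rats gave -0.43 (p = 0.252).

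**Figure D3:**
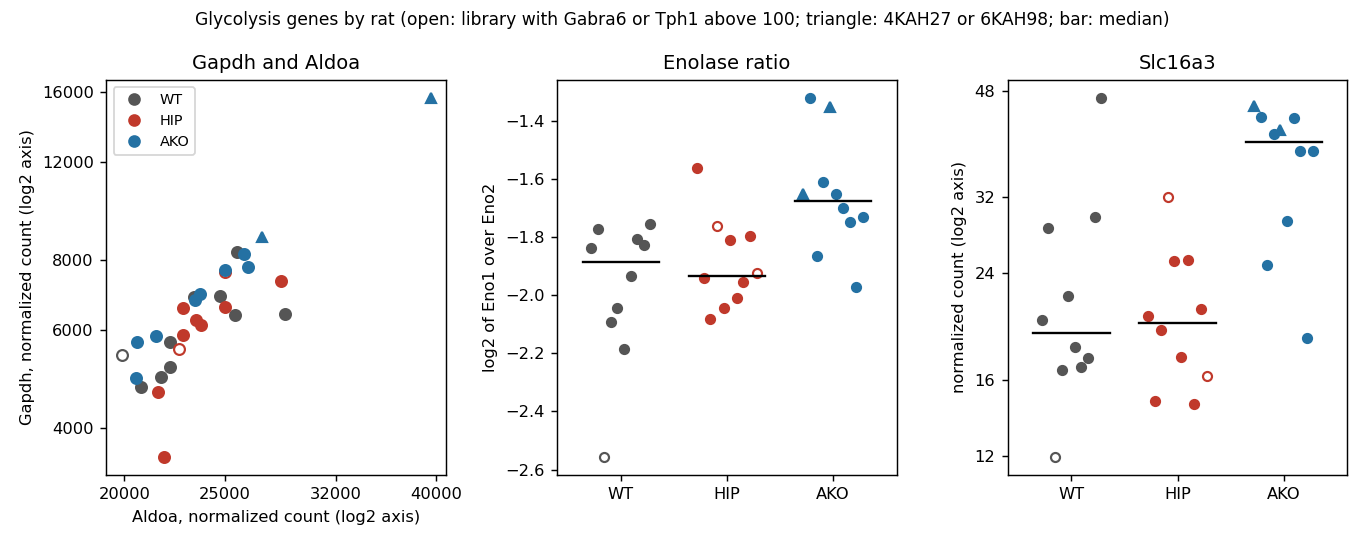
Left, normalized counts of Gapdh (y axis) against Aldoa (x axis), both on log2 scales, 1 point per rat. Middle and right, the log2 ratio of Eno1 to Eno2 and the normalized count of Slc16a3 by group, with a bar at the median. AKO rat 6KAH98 is at the top right of the left panel at 39491 and 15653, and most AKO rats lie above the WT and HIP medians for Slc16a3.

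Beyond the members, 28 of 30 further glycolysis genes and 34 of 40 further HIF pathway genes were tested. Of the glycolysis genes 0 were called in HIP vs. WT, 5 in AKO vs. WT (3 higher and 2 lower) and 4 in HIP vs. AKO (2 higher and 2 lower). The HIF pathway genes gave 1, 3 and 4 calls. As shares these were 0%, 17.9% and 14.3% of the glycolysis genes and 2.94%, 8.82% and 11.8% of the HIF pathway genes, beside 2.57%, 9.34% and 12.7% of all tested genes. Their median log2 fold changes lay between -0.05 and 0.04, near the medians of 0.00 over all tested genes. Without the 3 libraries only 1 of the further glycolysis genes was called in AKO vs. WT, where 10.3% of all genes were. In HIP vs. AKO 2 further glycolysis genes and 7 further HIF pathway genes were then called, where 15.1% of all genes were. The clearest of these genes was Slc16a3, the lactate exporter MCT4 and a HIF target. It was 12.0, 19.1 and 46.7 in WT, 14.6, 19.9 and 32.0 in HIP, and 18.8, 39.5 and 45.3 in AKO rats. AKO rats were at the high end, and the groups overlapped. The log2 fold change was 0.70 in AKO vs. WT (standard error 0.21, limma, p = 0.00368, Benjamini-Hochberg adjusted p = 0.281) and -0.78 in HIP vs. AKO (standard error 0.18, p = 0.000279, adjusted p = 0.0867). Without the 3 libraries these were 0.61 (p = 0.00730) and -0.83 (p = 0.000232), and no single rat left out took p above 0.00750 in AKO vs. WT or above 0.000700 in HIP vs. AKO. In HIP vs. AKO the adjusted p passed 0.05 with sample-quality weights (0.00412), with the leading residual component as a covariate (0.0198), without HIP rat 10RT46 (0.0290) and without AKO rat 7AKO30 (0.0253). The weights and the component are taken from these same data, and the component leaves the fold unchanged, so neither is separate support. With them 6.69% and 2.23% of all tested genes passed adjustment.

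Other calls were smaller, and none of them passed Benjamini-Hochberg adjustment of the main limma fit. Cul2, a scaffold of the Vhl ligase, was 823 to 975 in WT, 846 to 1079 in HIP and 747 to 1031 in AKO rats. Its log2 fold change was 0.13 in HIP vs. WT (p = 0.0126) and 0.17 in HIP vs. AKO (p = 0.0124). Also in HIP vs. AKO, Angptl4, an inhibitor of lipoprotein lipase, gave -0.56 (p = 0.0254), Ankzf1 gave -0.24 (p = 0.0140) and Plod1, a lysyl hydroxylase of collagen, gave -0.25 (p = 0.0238). The calls of Cul2, Angptl4 and Ankzf1 held without any 1 rat, although Angptl4 gave -0.36 (p = 0.0327) without 4KAH27, and that of Plod1 was lost without 4KAH35 (p = 0.0505). With sample-quality weights in limma, Cul2 (adjusted p = 0.0262), Pdha1 (0.0290) and Plod2 (0.0460) passed adjustment in HIP vs. AKO. Tigar (0.0444) did so in AKO vs. WT. These weights called 6.69% and 5.02% of all tested genes after adjustment.

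Other calls were lost on leaving out single rats. In AKO vs. WT, Edn1, which encodes the vasoconstrictor endothelin, gave a log2 fold change of 0.53 (limma, p = 0.0371, lost without 10RT38, 10RT39, 10RT43, 10RT50, 4KAH27, 4KAH35 or 7AKO19). Rragd, a GTPase of the mTORC1 pathway, gave -0.39 (p = 0.0315, lost without 10RT39, 10RT44, 10RT50, 4KAH35, 6KAH98, 7AKO19 or 7AKO28), and Insig2, a brake on sterol synthesis, gave -0.35 (p = 0.0322, lost without 10RT50, 10RT51, 6KAH98 or 7AKO19). The Eno2 call was lost without 10RT38, 10RT43, 10RT44, 4KAH27, 4KAH35, 6AKO52 or 6KAH99. Pfkl, the liver phosphofructokinase, gave 0.27 (p = 0.0467, lost without 10RT38, 10RT39, 10RT43, 10RT44, 10RT47, 10RT50, 4KAH27, 6AKO52, 6KAH98, 6KAH99, 7AKO19, 7AKO28 or 7AKO42). Pygb, the brain glycogen phosphorylase, gave -0.19 (p = 0.0439, lost without 10RT38, 10RT43, 10RT44, 10RT45, 10RT47, 4KAH35, 6AKO35, 6KAH98, 7AKO19, 7AKO28 or 7AKO42). In HIP vs. AKO, Pygb gave 0.19 (p = 0.0366, lost without 10RT41, 10RT42, 10RT48, 10RT52, 12RT23, 6AKO35, 6KAH98 or 7AKO28). Tigar, a fructose bisphosphatase, gave 0.23 (p = 0.0411, lost without 10RT41, 10RT42, 10RT46, 10RT48, 10RT52, 4KAH27, 4KAH35, 6AKO35, 6AKO52, 6KAH99, 7AKO19 or 7AKO42). Slc2a1, the glucose transporter GLUT1 of endothelium and glia, gave -0.23 (p = 0.0464, lost without 10RT37, 10RT46, 10RT48, 10RT49, 10RT54, 12RT23, 4KAH27, 4KAH35, 6KAH98, 6KAH99, 7AKO30 or 7AKO42). For Slc2a1 in AKO vs. WT (0.24, p = 0.0467), the call was lost without 10RT43 (0.21, p = 0.0795), and no other rat was left out singly.

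Single rats, more than groups, set the extremes of these genes, and the same rats lay outside their group in many other genes. In 26 of 108 combinations of member and group, 1 rat stood apart from the other 9 by the critical value of Dixon's test. About 5.4 would by chance if the values of each group were normally distributed. This was not checked, and the 3 libraries are among the rats. Dixon's test was not run over all genes, so the count of 26 does not set the members apart from other genes. WT rat 10RT43 stood apart for 8 members, AKO rat 4KAH27 for 6 and AKO rat 6KAH98 for 5. In 10RT43, 26 of 36 members lay outside the range of the other 9 WT rats, as did 60.0% of all genes, in 6KAH98 19 of 36 (51.1% of all genes), in HIP rat 10RT46 16 of 36 (46.7%), in 4KAH27 15 of 36 (35.9%) and in HIP rat 12RT23 4 of 36 (22.6%).

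The pattern differed between these rats. WT rat 10RT43 had high Hif1a, Arnt, Vegfa, Bnip3l, Mxi1 and Ddit4 and low Ldha, Pfkp, Pdk1, Egln3 and Bhlhe40. Its summed cerebellum markers were 45156 (56.1 to 518 in the other WT rats) and its neocortex markers 12838 (26804 to 39771). AKO rat 4KAH27 had high Hmox1, Ddit4, Vhl, Mxi1, Stc1, Pfkfb3 and Ankrd37, low P4ha1 and Pdk1, and the fewest estimated reads of all 30 rats. Its summed endothelium markers were 771 (1284 to 2314 in the other AKO rats), microglia markers 1735 (2395 to 4465) and mural cell markers 1513 (2028 to 4222). Striatum markers summed to 8190 in this rat (1197 to 4658 in the other AKO rats). AKO rat 6KAH98 had high Gapdh, Aldoa, Eno1, Tpi1, Pkm and Ldha and low Hif1a, Epas1, Arnt, Vegfa, Stc1, Hk2 and Pfkfb3. Its neocortex marker sum was 46745 (23514 to 39397 in the other AKO rats). HIP rat 10RT46, with pineal markers of 22622 (8.63 to 38.3 in the other HIP rats) and choroid plexus markers of 15789 (34.1 to 92.9), had low Slc2a3, Pfkfb3 and Hif3a and high Ndrg1. The part of tissue, cell types and depth in these values was not tested.

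**Figure D4:**
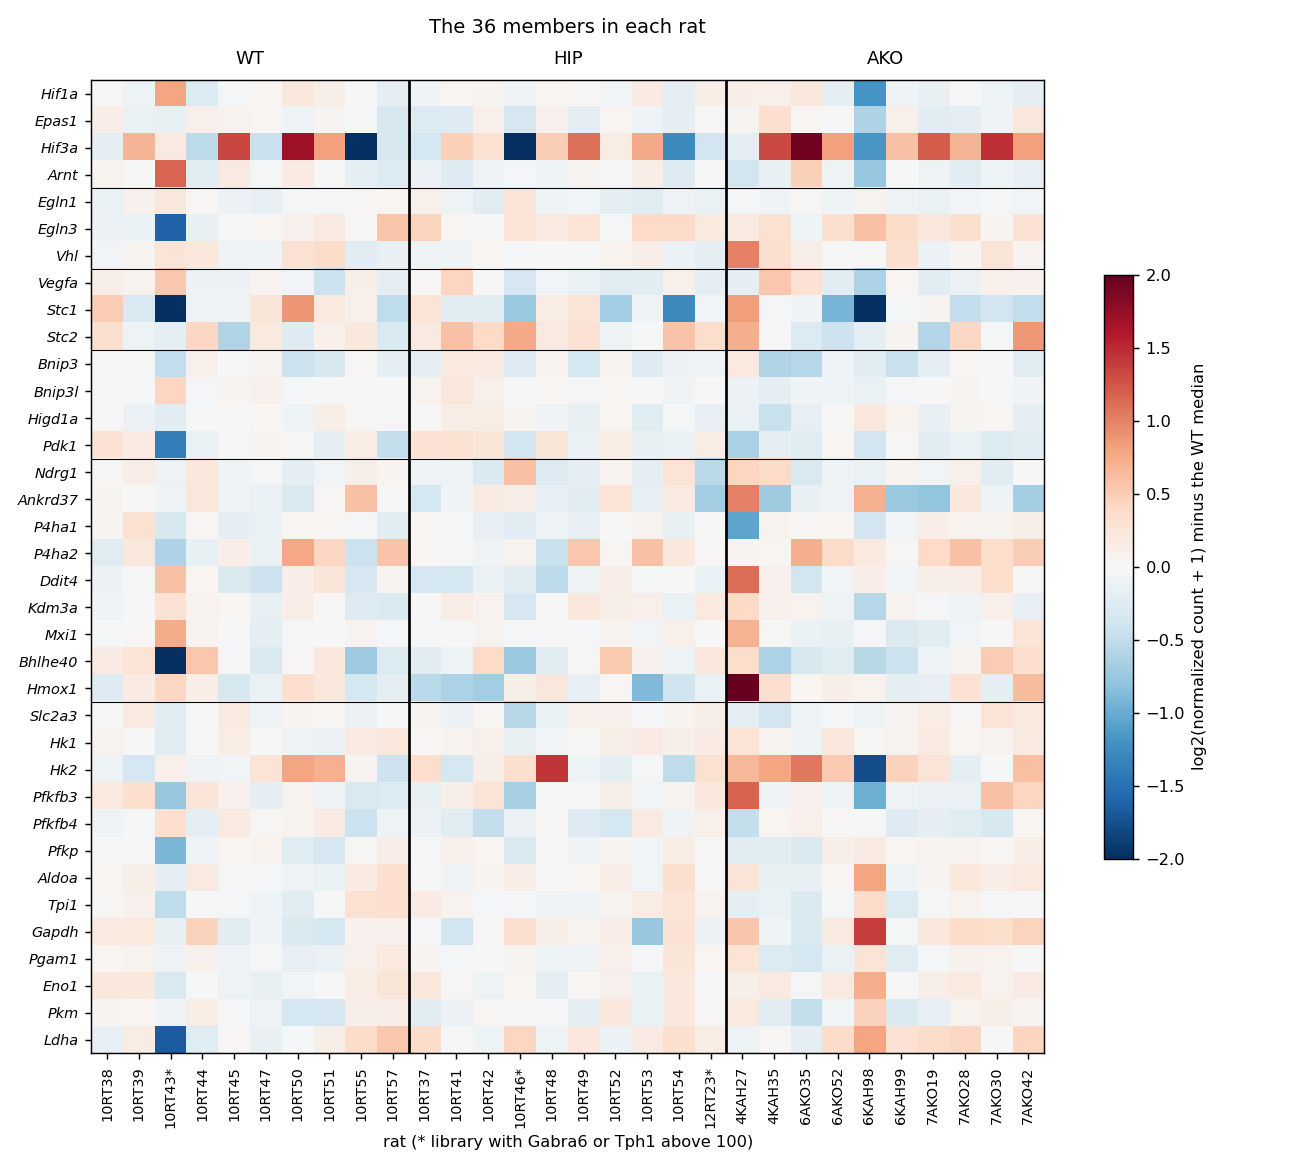
Log2(normalized count + 1) of each member (rows, by role) in each rat (columns, by group) minus the WT median, with the colour scale ending at -2 and 2. Columns 10RT43, 4KAH27 and 6KAH98 stand out over many rows, and row Hif3a varies in all 3 groups.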

How the data were processed

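Brain RNA of 10 WT, 10 HIP and 10 AKO rats was sequenced on an Illumina HiSeq 2500. Per the methods, the authors used Partek Flow (10.0.22.0228 in the submitters' notes) for alignment to rn7, quantified genes of Ensembl 105 and normalized with DESeq2. The submitters' notes also name STAR 2.7.8a and Bowtie2. The deposited values are this signal, normalized counts that are not whole numbers, so no count test was used. Between 83.7% and 87.6% of values under 30 lay within 0.05 of a whole estimated read.

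Groups were compared with limma 3.58.1 in R 4.3.3 (lmFit, eBayes with trend), two-sided, on log2(normalized count + 1), using only rats of the pair of groups and no covariate, for genes with a mean of at least 1. This scale understates changes of low genes. P-values were adjusted by Benjamini-Hochberg over all tested genes. Thresholds were 0.05 for unadjusted and for adjusted p. Ratios and correlations used two-sided permutation tests with 100000 resamples (Python 3.11.15, numpy 2.4.6). The fit was tested on simulated data. Each p-value sets a group difference, or a correlation, against the variation between rats.

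Every member is named, with full statistics for those under 0.05 (or the 3 with the smallest p), and up to 4 genes per further list. The members and lists were chosen with earlier results of these data known. Alternatives changed the pseudocount, filter, scaling, weights, covariates and rats. Estimated reads as a covariate and fits without 10RT43, 4KAH27 and 6KAH98 were chosen after the data were seen. 1 gene of the neocortex marker list is not reported here.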

Additional observations from a re-analysis of the deposited data

Results flagged for a closer look

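In a group of 10 rats, 1 rat was noted where its gap to the nearest of the other 9 was larger, as a share of the range of the group, than the 95% critical value of Dixon's test. By chance, about 1 in 20 groups would be noted if the values were normally distributed, which was not checked. Of 108 combinations of member and group, 26 were. The same count was not made over all genes. WT rat 10RT43 stood apart in normalized counts of Hif1a at 2136 (above 1022 to 1422 in the others), Arnt at 776 (above 285 to 393 in the others) and Egln3 at 139.9 (below 388 to 633 in the others). WT rat 10RT43 stood apart also in normalized counts of Vegfa at 1788 (above 909 to 1330.1 in the others), Bnip3l at 3673 (above 2647 to 2900.2 in the others) and Mxi1 at 3262 (above 1731 to 2047 in the others). WT rat 10RT43 stood apart also in normalized counts of Pfkp at 3859 (below 5772 to 7929 in the others) and Ldha at 1455 (below 3921 to 6732 in the others). AKO rat 4KAH27 stood apart in normalized counts of Vhl at 1445 (above 658 to 898 in the others), Stc1 at 89.1 (above 9.72 to 51.4 in the others) and P4ha1 at 410.0 (below 654 to 931 in the others). AKO rat 4KAH27 stood apart also in normalized counts of Ddit4 at 2156 (above 776 to 1268 in the others), Mxi1 at 3167 (above 1605 to 2333 in the others) and Hmox1 at 1039.5 (above 86.7 to 154.8 in the others). AKO rat 6KAH98 stood apart in normalized counts of Hif1a at 536 (below 1072 to 1431 in the others), Aldoa at 39491 (above 20500.3 to 27149 in the others) and Tpi1 at 12903 (above 8219.9 to 10444 in the others). AKO rat 6KAH98 stood apart also in normalized counts of Gapdh at 15653 (above 4921 to 8808 in the others) and Eno1 at 9004 (above 5339.5 to 6220.2 in the others). HIP rat 10RT46 stood apart in normalized counts of Slc2a3 at 1948 (below 2598 to 3093 in the others) and Pfkfb3 at 373 (below 537 to 707 in the others). AKO rat 6AKO35 stood apart in normalized counts of Arnt at 482 (above 204 to 348 in the others). HIP rat 10RT41 stood apart in normalized counts of Vegfa at 1641 (above 967 to 1318 in the others). WT rat 10RT55 stood apart in normalized counts of Ankrd37 at 74.6 (above 40.4 to 58.2 in the others). HIP rat 10RT48 stood apart in normalized counts of Hk2 at 176 (above 45.2 to 82.8 in the others). HIP rat 10RT54 stood apart in normalized counts of Aldoa at 28322 (above 21561 to 25003 in the others). No cause of these values was tested.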

How the results depend on the processing

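Calls at the unadjusted threshold in HIP vs. WT, AKO vs. WT and HIP vs. AKO numbered 439, 1594 and 2179 genes, 1, 1 and 7 members, 0, 5 and 4 further glycolysis genes and 1, 3 and 4 further HIF pathway genes. After adjustment 0%, 0.0997% and 0.17% of tested genes and 0 members were called. Counts that moved by over 1.5 times follow, and those given as adjusted are calls after adjustment. With all 30 rats in 1 fit, AKO vs. WT gave 0.158% of genes (adjusted) and 3 members, HIP vs. AKO gave 0.327% of genes (adjusted) and 4 members, and HIP vs. WT gave 2 members. With estimated reads as a covariate, AKO vs. WT gave 4 members and 1 further HIF pathway gene, and HIP vs. WT gave 4093 genes (3.99% adjusted), 2 members (adjusted), 11 members, 8 further HIF pathway genes and 7 further glycolysis genes. With estimated reads but without 10RT43, AKO vs. WT gave 0.0352% of genes (adjusted), 0 members, 0 further HIF pathway genes and 1 further glycolysis gene, and HIP vs. WT gave 268 genes and 0 further HIF pathway genes. With the leading residual principal component as a covariate, which by construction keeps the folds, AKO vs. WT gave 2735 genes (2.36% adjusted), 1 member (adjusted) and 4 members, HIP vs. AKO gave 3510 genes (2.23% adjusted), 1 member (adjusted), 11 further HIF pathway genes and 1 further glycolysis gene (adjusted), and HIP vs. WT gave 1568 genes (0.866% adjusted), 7 members, 1 further HIF pathway gene (adjusted), 3 further HIF pathway genes and 2 further glycolysis genes. With that component but without 10RT43, AKO vs. WT gave 2423 genes (0.376% adjusted), 3 members and 3 further glycolysis genes, and HIP vs. WT gave 665 genes, 2 members, 2 further HIF pathway genes and 1 further glycolysis gene. With library number as a covariate, AKO vs. WT gave 0.182% of genes (adjusted) and 0 members, and HIP vs. WT gave 2 members, 2 further HIF pathway genes and 1 further glycolysis gene. With genes of a mean of at least 10, HIP vs. WT gave 2 members. With quantile normalization, AKO vs. WT gave 2 members, and HIP vs. WT gave 2 members and 2 further glycolysis genes. With sample-quality weights, AKO vs. WT gave 3930 genes (5.02% adjusted), 6 members, 6 further HIF pathway genes, 2 further glycolysis genes (adjusted) and 9 further glycolysis genes, HIP vs. AKO gave 4289 genes (6.69% adjusted), 2 further HIF pathway genes (adjusted), 12 further HIF pathway genes, 2 further glycolysis genes (adjusted) and 8 further glycolysis genes, and HIP vs. WT gave 885 genes, 2 members and 2 further HIF pathway genes. Without 4KAH27 and 6KAH98, AKO vs. WT gave 0.252% of genes (adjusted), 2 members and 1 further HIF pathway gene, and HIP vs. AKO gave 0.603% of genes (adjusted). Without the 3 libraries, AKO vs. WT gave 2 members and 1 further glycolysis gene, and HIP vs. AKO gave 0.258% of genes (adjusted), 7 further HIF pathway genes and 2 further glycolysis genes. Without all 5 libraries, AKO vs. WT gave 0.57% of genes (adjusted), 3 members and 1 further HIF pathway gene, and HIP vs. AKO gave 1.12% of genes (adjusted) and 1 further glycolysis gene (adjusted), Pdha1. The 2 members after adjustment with estimated reads were Egln3 (log2 fold change 0.79) and Ldha (0.75), each with an adjusted p of 0.0421, and neither passed without 10RT43. Egln3 in HIP vs. WT also passed the unadjusted threshold with all 30 rats (p = 0.0377), weights (0.0282), library number (0.0438) and the residual component (0.00176), and its AKO vs. WT call was lost with library number (0.0557). With all 30 rats, the HIP vs. AKO calls of Pdk1 (p = 0.0580), Bnip3l (0.0527) and Hif3a (0.0635) were lost. With the residual component, Egln3 in AKO vs. WT (adjusted p = 0.0279) and Gapdh in HIP vs. AKO (adjusted p = 0.0391) passed adjustment. This component is taken from the residuals of the same data, so these smaller p-values are not separate support. The share of HIP vs. WT calls that were higher was 43.3%, against 64.2% with the residual component and 57.9% with estimated reads. Leaving out 1 rat at a time gave 309 to 779 genes in HIP vs. WT, 1311 to 1974 in AKO vs. WT and 1657 to 3005 in HIP vs. AKO, and 0% to 0%, 0.0586% to 0.229% and 0.0994% to 0.411% of genes after adjustment. Members numbered 1 to 3, 0 to 3 and 3 to 7 (0 to 0 after adjustment), further glycolysis genes 0 to 3, 1 to 6 and 1 to 4 (0 to 1 after adjustment in HIP vs. AKO), and further HIF pathway genes 1 to 2, 1 to 4 and 4 to 10. Ratio tests numbered 3 to 6, and 0 to 2 after adjustment. No direction of a named result reversed under these alternatives. The cause of each change was not tested. No paired analysis was possible because the annotation gives no replicate numbers and the numbers used here follow the order of deposit. Low counts limit Hif3a, Stc1 and Slc16a3, and only estimated reads were at hand, so that no counting interval is given.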
